A study of Canis lupus familiaris with 6 samples.

Results

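Transcript levels in empty drill holes of the dog mandible were compared between day 14 and day 7 of healing. The comparison uses 2 of the 6 arrays of the series, those of holes left without an implant, chosen by their labels alone, with 1 array per day. The donors were beagle dogs 9 years old whose premolars had been extracted. After 3 months of healing, holes 4.5 mm wide and 8 mm long were drilled into the mandible and left empty or filled with beta-TCP (beta-tricalcium phosphate, a ceramic used in place of bone graft). Cylinders of the size of the hole were taken at 4, 7 or 14 days, and total RNA was labelled for an Affymetrix canine array from 100 ng. No allele, transgene or drug is named for any group. How many animals were used, and whether specimens came from one animal or were pooled, was not given in the labels. Each group holds 1 array, so no difference below has a replicate check, an error or a p-value.

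A drill hole in bone first fills with clot and inflammatory cells, then with granulation tissue rich in vessels and fibroblasts, and then with woven bone that is resorbed and replaced. Osteoclasts, the multinucleated cells that resorb bone, seal off a patch of surface and acidify it with a vacuolar proton pump. They then digest the exposed collagen with secreted proteases. Osteoblasts lay down type I collagen together with acidic glycoproteins that bind mineral.

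Signals are given as multiples of the median probe set of the same array, and differences as day 14 minus day 7 of log2(signal + 1), on which the change of weak signals is understated. A difference of 1 is called 2-fold. Each gene was read on its probe set of highest mean, and 10550 of 15153 genes passed the filter on low signal. The deposited values of day 14 had a median of 12 and those of day 7 a median of 1.0, so days 7 and 14 were deposited on different scales. After division by the median, the 90th percentile was 20.6 on the day 7 array and 19.8 on the day 14 array. The Spearman correlation between these arrays was 0.866 over 42860 probe sets. Among probe sets sharing a name stem, 19 of 19 pairs ending in _a_at and _at that lay over 2 log2 units apart on both arrays stood in reversed order at day 14. Of 287 such pairs ending in _at and _s_at, 286 kept their order. The first kind of pair was left out. Healing time and whatever else set day 14 apart in processing cannot be told apart in any value below.

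Of the 10550 genes, 443 were at least 2-fold higher at day 14 (4.2%) and 664 at least 2-fold lower (6.29%), together 10.5%. The median of all genes was -0.02, and 48.6% of genes lay above 0. At 8-fold, 11 genes were higher and 13 lower. Of 37 gene lists with at least 5 kept genes, 7 had a median of -0.5 or lower, 4 one of 0.5 or higher, and 26 lay between. The lowest genes were the small heat shock protein gene CRYAB (-5.11), the matrix protease genes MMP3 (-4.23), MMP13 (-4.17) and MMP9 (-3.35), the sterol regulator gene INSIG1 (-3.43) and the osteoclast genes ACP5 (-3.29) and SLC4A2 (-3.27). Among the highest were genes of secreted proteins of fibrous matrix, tenascin N (TNN, 3.81), thrombospondin 2 (THBS2, 3.47), asporin (ASPN, 3.45), periostin (POSTN, 3.21) and osteoglycin (OGN, 3.09), together with the fatty acid binding protein gene FABP4 (4.14).

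**Figure D1:**
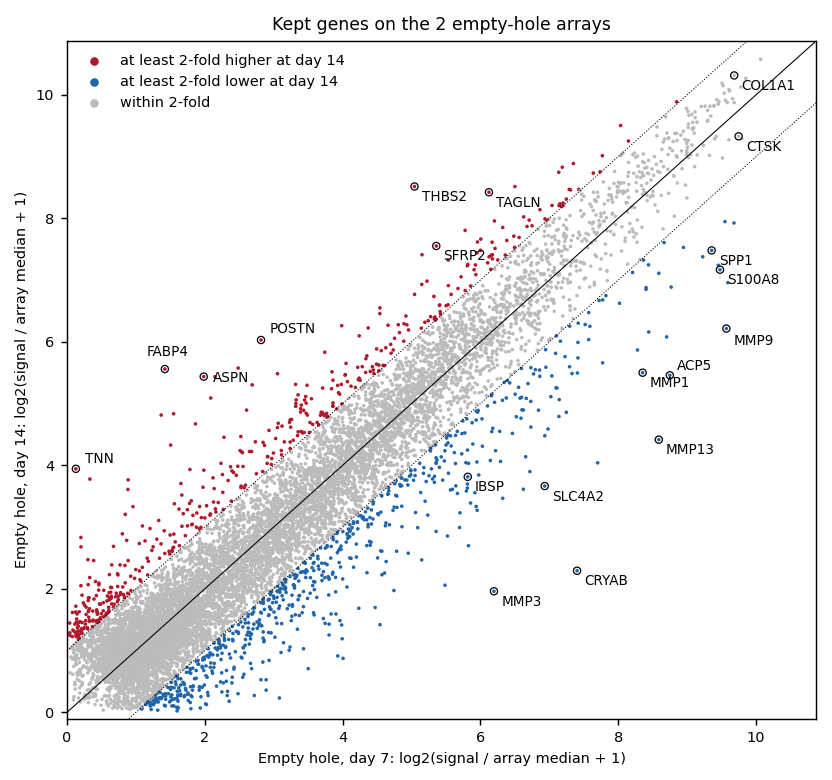
Each point is 1 of the 10550 kept genes, with log2(signal / array median + 1) of the empty hole at day 7 on the horizontal and at day 14 on the vertical axis; the solid line marks equal signal and the dotted lines 2-fold. Proteases and osteoclast genes (MMP3, MMP13, MMP9, ACP5, SLC4A2) lie far below the lines, while TNN, ASPN, POSTN and THBS2 lie far above. COL1A1 and CTSK stay between them on their main probe sets, but other probe sets of both pass 2-fold.

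Osteoclast genes were the list with the lowest median. Of 19 list genes on the array 17 passed the filter, and their median difference was -1.98, against -0.02 for all genes. At least 2-fold lower were 12 of 17, beside 6.29% of all genes, and 0 were 2-fold higher. Of the 10 osteoclast genes with several probe sets, 9 lay below 0 on all of them. On 11 of the 17 the day 7 array of the empty hole had the highest signal of all 6 arrays, which it had for 20.3% of all kept genes.

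ACP5, the tartrate-resistant acid phosphatase that marks osteoclasts, read 15.9, 429 and 42.9 times the array median at days 4, 7 and 14 of the empty hole. In implanted holes it read 25.5, 199 and 189.6 on the same days. On its second probe set it read 7.64, 249 and 19.3 in the empty hole and 17.3, 165 and 10.3 in implanted holes. The empty hole at day 7 stood above the other 5 arrays on both, and its difference to day 14 was -3.29 and -3.62. In implanted holes the probe sets disagreed, at -0.07 and -3.87. Implanted values elsewhere are likewise those of the main probe set unless stated. MMP9, the gelatinase that osteoclasts and neutrophils secrete, read 52.5, 758 and 73.2 in the empty hole and 59.3, 239 and 197 in implanted holes (-3.35 from day 7 to 14). SLC4A2 encodes the anion exchanger that lets bicarbonate leave the osteoclast, and it read 9.35, 121 and 11.7 against 8.26, 33.3 and 32.9. Its 3 probe sets differed by -3.52 to -1.96. CA2, the carbonic anhydrase that supplies protons to the pump, read 13.7, 104 and 13.9 in the empty hole and 25.4, 52.3 and 20.2 in implanted holes (-2.82). These 4 genes share one course in the empty hole, a peak at day 7 and a day 14 signal nearer to that of day 4.

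Other osteoclast genes were read at lower signal. ITGB3, the beta chain of the integrin by which osteoclasts attach, read 0.993, 4.01 and 0.208 in the empty hole (-2.05). The receptor gene SIGLEC15, which acts in osteoclast differentiation, read 0.128, 4.86 and 0.483 (-1.98), and the chloride channel gene CLCN7 1.77, 5.11 and 1.38 (-1.36). SNX10, a sorting nexin gene needed for the resorbing surface, differed by -2.36 but was highest at day 4 (103, 59.5 and 10.8). The probe sets of CTSK disagreed. CTSK encodes cathepsin K, the main collagen-degrading protease of the resorption pit, and its brighter probe set read 340.2, 857 and 641 in the empty hole (-0.42) and 458, 603 and 1035 in implanted holes (0.78). The other read 87.3, 414 and 54.5 in the empty hole (-2.90) and 177, 261 and 23.1 in implanted holes (-3.44). Of the 17 genes, TNFRSF11A alone lay above 0 (0.91), at a signal no higher than 1.13. The calcitonin receptor gene CALCR, a late osteoclast marker, did not pass the filter and read 0.713 at day 7 and 0.0917 at day 14. Since whole specimens were measured, fewer osteoclasts and less of these transcripts per osteoclast cannot be told apart.

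Genes for the proton pump were lower as a group. The lysosome and phagosome list shares CTSK and the pump genes ATP6V1B2 and ATP6V1C1 with the osteoclast list. In it 15 of 37 genes were at least 2-fold lower, beside 6.29% of all genes, and 0 higher, with a median of -0.81. Its ATP6 genes, which encode the pump's subunits and accessory proteins and were set apart only after their values had been seen, had a median of -1.52, with 10 of 14 at least 2-fold lower. All probe sets of all 14 lay below 0. The other 23 lysosomal genes had a median of -0.41, and 5 were 2-fold lower. ATP6V0D2, the isoform of the membrane sector enriched in osteoclasts, read 24.5, 151 and 28.0 in the empty hole and 30.5, 86.1 and 75.4 in implanted holes. Its 3 probe sets lay between -3.43 and -2.39. TCIRG1, the pump subunit whose loss causes osteopetrosis, read 155, 434 and 117 and, in implanted holes, 125, 188 and 293. Both genes were highest in the empty hole at day 7. In implanted holes the differences to day 14 depended on the probe set, from -1.97 to -0.19 for ATP6V0D2, and 0.64 and -0.01 for TCIRG1. The widely expressed subunit genes ATP6V0C (-2.68), ATP6V1A (-2.48) and ATP6V1B2 (-2.11) were lower too. ATP6V1B2 stood at like levels at days 4 and 7 (219.8 and 218). Among genes of soluble lysosomal proteins, the hydrolase gene GUSB differed by -1.37 and the cholesterol-binding NPC2 by -1.42. The cathepsin genes CTSD (-0.82) and CTSS (0.82) lay on opposite sides of 0 within 2-fold.

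Secreted collagenases and stromelysin were far lower at day 14. Of 15 kept genes of the metalloproteinase and inhibitor list, 6 were at least 2-fold lower and 1 higher (6.29% and 4.2% of all genes), with a median of -0.70. That median was 0.00785 with no filter on low signal. MMP13, a collagenase of bone cells and hypertrophic cartilage, read 14.3, 384 and 20.3 in the empty hole and 23.2, 156 and 49.5 in implanted holes. The interstitial collagenase gene MMP1 read 62.7, 326 and 44.2 against 48.6, 211 and 39.5, and stromelysin 1 (MMP3) read 8.96, 72.3 and 2.89 against 12.2, 15.1 and 1.56. All 3 peaked at day 7 in both kinds of hole and were higher there in the empty one. Their day 14 minus day 7 differences were -4.17, -2.85 and -4.23 in the empty hole and -1.63, -2.39 and -2.65 in implanted holes. The inhibitor gene TIMP1 was lower with them (-1.75), and read 141, 818 and 242. TIMP3 was lower on its main probe set (-1.53), though 1 of its 4 lay at -0.05. MMP2, the gelatinase of fibroblasts, was the 1 gene at least 2-fold higher (1.41) and read 8.72, 39.1 and 105. Its other probe sets gave 0.60 and 0.71.

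**Figure D2:**
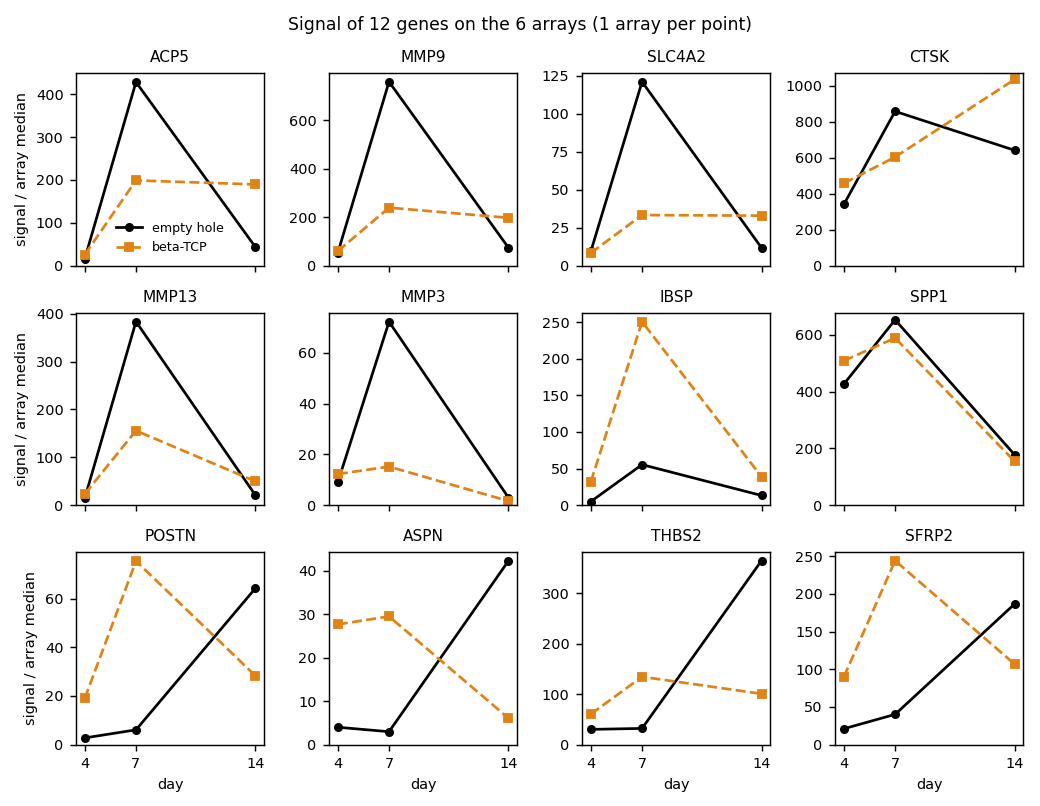
Signal relative to the array median of 12 genes against the day, with 1 array per point, for the empty hole (solid) and the hole with beta-TCP (dashed); each gene is read on its main probe set, and axes start at 0 and differ between panels. In the empty hole ACP5, MMP9, SLC4A2, MMP13 and MMP3 peak at day 7, while POSTN, ASPN, THBS2 and SFRP2 reach their highest empty-hole signal at day 14.

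TNFSF11 and IL34, ligand genes of osteoclast formation, were read at low signal. TNFSF11, encoding the ligand RANKL that drives osteoclast formation, read 1.30, 6.19 and 1.30 in the empty hole (-1.64). IL34, an alternative ligand of the receptor encoded by CSF1R, read 1.21, 8.54 and 1.80 (-1.77), and CSF1R itself 3.92, 8.94 and 1.99 (-1.73). On the second probe set of CSF1R the difference was -0.21. These 3 were the genes at least 2-fold lower among 7 regulators, beside 6.29% of all genes, and none was higher. The list median was -0.98, and 3 of the 7 lay above 0. Summed over the 7, the empty-hole signal was 191, 116 and 54.9 at days 4, 7 and 14.

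Genes of the mineralized matrix were not higher at day 14. Of 13 kept genes, 3 were at least 2-fold lower and 0 higher, beside 6.29% and 4.2% of all genes (median -0.22). IBSP, the bone sialoprotein that nucleates mineral, read 4.80, 55.3 and 13.1 in the empty hole and 31.9, 251 and 38.7 in implanted holes. Osteopontin (SPP1), made by osteoblasts, osteoclasts and macrophages, read 427, 653 and 177 against 509, 589 and 154. On these probe sets both were highest at day 7 in both kinds of hole. From day 7 to 14 IBSP differed by -2.0 in the empty and -2.66 in the implanted hole, and SPP1 by -1.87 and -1.93. The second probe set of SPP1 had no day 7 peak in either kind of hole, reading 385, 369 and 199 in the empty hole (-0.88) and 308, 370.1 and 441 in implanted holes (0.25). DMP1, a matrix protein of osteocytes, was the other lower gene (-1.09), at a signal of 1.80 at day 7.

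Late markers of osteoblasts and osteocytes read about or below the array median in the empty hole. Osteocalcin (BGLAP) read 0.755, 0.653 and 0.225 in the empty hole, and the osteocyte genes MEPE, PHEX and SOST did not exceed 1.37 on any empty-hole array. The master transcription factor gene RUNX2 read 1.25, 0.923 and 0.308. ALPL, the alkaline phosphatase that frees phosphate for mineral, was higher on both probe sets (1.33 and 1.73). It read 1.79, 10.2 and 27.1 in the empty hole, and 6.31, 40.2 and 26.9 in implanted holes. ENPP1, which makes the mineral inhibitor pyrophosphate, was lower (-2.55) and read 1.23, 17.8 and 2.22. Among osteoblast transcription factors MSX2 was higher (2.18) and the BMP target ID1 lower (-1.23), beside 4.2% and 6.29% of all genes. The other 9 of 11 lay within 2-fold. The osteocyte list as a whole lay at -0.73, but its lowest member was PDPN (-2.62), which stromal and lymphatic cells also express.

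Small leucine-rich proteoglycans, which bind collagen fibrils and set their spacing, were higher at day 14. Their median of 0.85 was the highest of the 37 lists, though the nerve or the ribosomal list lay higher under 6 of the 12 alternatives. At least 2-fold higher were 3 of 11 kept genes, beside 4.2% of all genes, and 0 were lower. ASPN read 3.98, 2.96 and 42.3 in the empty hole and 27.7, 29.5 and 6.06 in implanted holes, and OGN read 5.77, 4.59 and 46.6 against 17.5, 29.1 and 2.26. In the empty hole day 14 stood far above days 4 and 7, whereas in implanted holes both genes were lowest at day 14. Fibromodulin (FMOD) was the third (1.11). Decorin (DCN, 0.95) and biglycan (BGN, 0.96) lay just within 2-fold, at signals of 798 and 162 on the day 14 array, and OGN and ASPN were each read on 1 probe set.

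Matricellular and granulation tissue genes split. At least 2-fold higher were 8 of 28, beside 4.2% of all genes, and 3 were lower, beside 6.29%, and the median was 0.21. TNN, a tenascin of bone-forming tissue, read 0.198, 0.0933 and 14.4 in the empty hole and 4.64, 8.97 and 0.661 in implanted holes. Periostin, made by periosteal and ligament fibroblasts, read 2.73, 6.04 and 64.3 against 19.0, 75.4 and 28.3. THBS2, a matricellular inhibitor of vessel growth, read 30.1, 32.0 and 365 against 60.4, 134 and 101, and its probe sets gave 3.17 and 3.47. All 3 were highest of the empty-hole arrays at day 14, and POSTN at day 7 of implanted holes had already read 75.4. MFAP5, FBLN1, EFEMP2, EFEMP1 and FBLN2, genes of microfibrils and elastic fibres, were the other higher members, at 2.17, 1.39, 1.17, 1.03 and 1.01. Other probe sets of FBLN1 ranged down to 0.10. The lower members were the hyaluronan synthase gene HAS2 (-1.62), tenascin C (TNC, -1.50) and the microfibril gene fibrillin 2 (FBN2, -1.15). TNC read 1.43, 7.17 and 1.89 and peaked at day 7, so the tenascin genes TNC and TNN lay on opposite sides.

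Collagen genes of bone and fibrous matrix were higher by a smaller margin. The median of 11 genes was 0.59, and 10 lay above 0. Beside 4.2% of all genes, 3 passed 2-fold, COL12A1 (1.66), COL16A1 (1.32) and COL5A1 (1.01). COL1A1 read 732, 820.02 and 1270.1 and COL3A1 542, 1071 and 1523 in the empty hole (0.63 and 0.51), each on its main probe set. Other probe sets of COL1A1 passed 2-fold (1.22 and 1.89), and those of COL3A1 ran from -0.26 to 0.89. One of the 4 probe sets of COL12A1 gave 0.19. Genes that fold and process collagen lay at a median of 0.42, with 0 lower and 3 of 21 at least 2-fold higher, beside 4.2% of all genes. These were the prolyl hydroxylase subunit gene P4HA3 (1.53), the procollagen enhancer gene PCOLCE (1.24) and the procollagen peptidase gene ADAMTS2 (1.07). Other probe sets gave as little as 0.31 for PCOLCE and 0.49 for ADAMTS2. On the day 14 array PCOLCE read 516, against 217 at day 7.

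Some genes for making secreted protein were higher as well. In the secretory pathway list 5 of 43 genes were at least 2-fold higher, beside 4.2% of all genes, and 1 was lower. The empty hole at day 14 had the highest signal of the 6 arrays for 28 of them, beside 22.01% of all kept genes. The higher ones were SEC23A (1.72) and SEC31A (1.32) of the COPII coat that buds procollagen carriers, SSR1 (1.40) of the translocon, and the retrieval receptor genes KDELR2 (1.15) and KDELR3 (1.26). Other probe sets gave as little as 0.35 for SEC23A, 0.13 for SEC31A, 0.80 for SSR1 and 0.36 for KDELR3. The stress factor gene DDIT3 was the lower one (-1.10). The calcium-binding reticulum gene RCN1 was higher on both probe sets (1.43 and 1.54). Cytosolic ribosomal protein genes spread least of all lists, with 49 of 49 above 0, a median of 0.50 and 1 at least 2-fold, RPLP1 (1.03). With quantile normalization that median was 0.32.

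Contractile genes of myofibroblasts and smooth muscle were divided. TAGLN, an actin-binding protein of smooth muscle, read 21.8, 68.7 and 342 in the empty hole and 49.2, 113 and 291 in implanted holes, and in the empty hole all 3 probe sets were higher at day 14 (1.60 to 2.30). In implanted holes they gave 1.35, -0.89 and -1.09. Enteric gamma actin (ACTG2) read 8.37, 7.31 and 43.7 against 8.46, 22.5 and 52.8. Its probe sets gave 1.70 and 2.43 in the empty hole, and -0.91 and 1.20 in implanted holes. TPM2 (1.33), CALD1 (1.11) and CNN1 (1.02) were also at least 2-fold higher, although 2 of 4 probe sets of CALD1 lay below 0 (-0.49 and -0.13) and 1 of TPM2 gave 0.20. The potassium channel gene KCNJ8 of pericytes (-1.53, other probe sets -0.21 and -0.07) and the smooth muscle myosin gene MYH11 (-1.05) were lower, and ACTA2 (0.37) lay within 2-fold. With 5 higher and 2 lower genes of 17 (4.2% and 6.29% of all genes), the list median was 0.03. Vessel genes differed little, with 1 of 26 at least 2-fold higher and 1 lower and a median of -0.19. The endothelial genes PECAM1, KDR and VWF read 86.5, 63.5 and 72.6 at day 14 against 113, 103 and 112 at day 7.

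Growth factor pathways had members on both sides. Among BMP and TGF-beta genes 3 of 23 were at least 2-fold higher and 3 lower (4.2% and 6.29% of all genes). BMP2, a ligand that induces bone, read 27.7, 137 and 37.1 and was lower on both probe sets (-2.36 and -1.86). The activin subunit gene INHBA was lower as well (-2.23), reading 29.6, 77.3 and 15.7, as was the TGF-beta-induced matrix gene TGFBI (-1.14). The activin antagonist follistatin (FST, 1.27), the ligand gene BMP4 (1.19) and the receptor gene ACVR2A (1.47) were higher. In the Wnt list the secreted modulators SFRP2 (2.19) and DKK3 (1.85) were higher, while the Wnt inhibitor gene WIF1 (-1.32) and the agonist gene RSPO3 (-1.51) were lower, and the other 19 of 23 lay within 2-fold. SFRP2 read 21.0, 40.03 and 187 in the empty hole and 89.8, 244 and 107 in implanted holes, with 3 probe sets between 1.69 and 2.62. WIF1 read 42.4, 115 and 45.6 in the empty hole. For the insulin-like growth factor axis, IGFBP2 (2.48) and IGF1 (1.07) were higher and IGFBP6 (-1.29) lower among 14 genes. ACAN (1.73) and HAPLN1 (2.37), which form the aggregates of cartilage matrix and also occur in other tissues, were the cartilage genes at least 2-fold higher. The defining cartilage genes COL2A1, SOX9 and COL10A1 did not pass the filter and read 0.25, 0.15 and 0.325 at day 14.

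Inflammatory cytokine and chemokine genes were lower. At least 2-fold lower were 13 of 31, beside 6.29% of all genes, none was higher, and the median was -0.92. Their courses before day 7 differed. IL1B, the pyrogenic cytokine, read 123, 10.5 and 2.81, PPBP, a platelet chemokine, 292, 46.3 and 11.1, and CCL3, a macrophage chemokine, 265, 38.5 and 12.7. These 3 were highest at day 4 and already far lower at day 7. CXCL10, a chemokine induced by interferon gamma, read 2.86, 44.9 and 6.23 in the empty hole and 3.01, 44.5 and 3.73 in implanted holes. CXCL13, which attracts B cells, read 1.74, 23.4 and 3.77 against 4.34, 2.23 and 2.13. Both peaked at day 7 in the empty hole, and CXCL13 had no such peak in implanted holes. CCL8 (-1.98), OSM (-1.99), IL11 (-1.41) and CCL20 (-1.26) were other lower members, and IL6 (-0.96) lay just within 2-fold at 128 and 65.4.

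Neutrophil genes lay at a median of -0.87, with 6 of 14 at least 2-fold lower and 1 higher (6.29% and 4.2% of all genes), and at -0.84 without MMP9. The calprotectin genes S100A8 and S100A9 read 824, 711 and 143 and 840.1, 699 and 150.1. Lactoferrin (LTF) was lower (-2.55), while the granule protein gene BPI was higher (1.19), reading 51.8, 50.04 and 115. Macrophage genes were split, with 5 at least 2-fold higher and 6 lower of 23 (4.2% and 6.29% of all genes). The lower ones were CD68, a lysosomal protein that osteoclasts share (-2.28), the endotoxin receptor CD14 (-1.80), CD5L (-1.78), CSF1R, SPI1 (-1.42) and FCGR1A (-1.36). The higher ones were the glycoprotein gene GPNMB (1.99), the lipoprotein gene APOE (1.60) and the scavenger or phagocytic receptors MSR1 (1.41), VSIG4 (1.25) and MRC1 (1.16). The other probe set of APOE gave 0.73. In the empty hole GPNMB read 46.0, 8.97 and 38.7, MSR1 2.91, 0.0279 and 1.73, and VSIG4 6.78, 0.797 and 3.28. Each of these was highest there at day 4 and lowest at day 7. MRC1, the mannose receptor, read 12.4, 17.7 and 40.8 in the empty hole, and CD163, the haemoglobin scavenger receptor, read 29.2, 27.8 and 49.5.

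Lymphoid genes gave few differences of 2-fold, and interferon and coagulation genes gave more, on both sides. JCHAIN, the joining chain of secreted antibodies, was the 1 lower gene of 18 lymphocyte and plasma cell genes (-2.70) and read 10.01, 50.9 and 6.96. Its probe sets ranged from -2.70 to -0.94. In the interferon and antigen presentation list 4 of 26 genes were at least 2-fold lower and 2 higher (6.29% and 4.2% of all genes). GBP1 (-2.47), ISG20 (-2.43), IRF1 (-1.71) and TAP1 (-1.05) were lower and MX1 (1.64) and IFI44L (1.17) higher. Other probe sets gave as little as -0.38 for IRF1 and 0.27 for IFI44L. Of 17 coagulation genes 3 were at least 2-fold lower and 4 higher (6.29% and 4.2% of all genes). The lower ones included SERPINE2 (-1.85), an inhibitor of thrombin and plasminogen activators, and the urokinase gene PLAU (-1.29). F13A1 (1.80), GAS6 (1.57), SERPINF1 (1.47) and TFPI2 (1.47) were higher. SERPINF1, an antiangiogenic protein that also restrains osteoclasts, read 52.1, 261 and 724 in the empty hole and 171, 507 and 1274 in implanted holes. Its second probe set was higher at day 14 in the empty hole too (1.98), but lower in implanted holes (-0.95).

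Cell cycle and respiratory chain genes differed little, while some hypoxia and glycolysis genes were lower. In the hypoxia and glycolysis list 6 of 32 genes were at least 2-fold lower, beside 6.29% of all genes. None was higher, and the median was -0.05. The lower ones included the glucose transporter gene SLC2A1 (-1.54), VEGFA (-1.18), PFKFB3 (-1.06) and ALDOA (-1.06). PGK1 was lower on its main probe set (-1.24) and higher on its other (0.71). None of 37 cell cycle genes reached 2-fold in either direction, and the list spanned -0.79 to 0.60. Among 44 respiratory chain genes 1 did, NDUFS8 (-1.10). Immediate early and stress genes lay at a median of -0.39 with 2 of 19 at least 2-fold lower and 0 higher. Complement genes lay at -0.10 (1 higher and 2 lower of 17) and common reference genes at 0.19 (2 lower of 15).

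Markers of other tissues were examined in the same arrays. Of 29 stratified epithelium genes on the array 17 passed the filter, and 13 lay below 0. Beside 6.29% of all genes, 4 were at least 2-fold lower, S100A2 (-2.12), S100A14 (-2.01), SBSN (-1.35) and IVL (-1.03). The summed signal of the 17 was 88.2 at day 7 and 36.4 at day 14. Of the defining keratinocyte genes DSG3 read 0.23 and 0.125, and TP63 0.0554 and 0.0417, and KRT5 and KRT14 were not matched to a probe set. The part of epithelial RNA in the other differences was not tested. The adipocyte genes FABP4 (13.3, 1.68 and 46.1), CD36 (1.67) and PPARG (1.14) were higher, DGAT2 lower (-1.98, with 1 of 4 probe sets at 1.21), and the adipocyte-defining genes ADIPOQ and PLIN1 read 1.18 and 0.0667 at day 14. FABP4 and CD36 are also made by capillary endothelium and macrophages. Skeletal muscle genes gave no 2-fold difference among 12. The nerve and Schwann cell list had a median of 0.72 on 8 of 16 genes, yet it holds the lowest gene of all, CRYAB (4.73, 168 and 3.90), and SOX10 read 0.645 and 0.783. With no filter on low signal that median was 0.074.

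**Figure D3:**
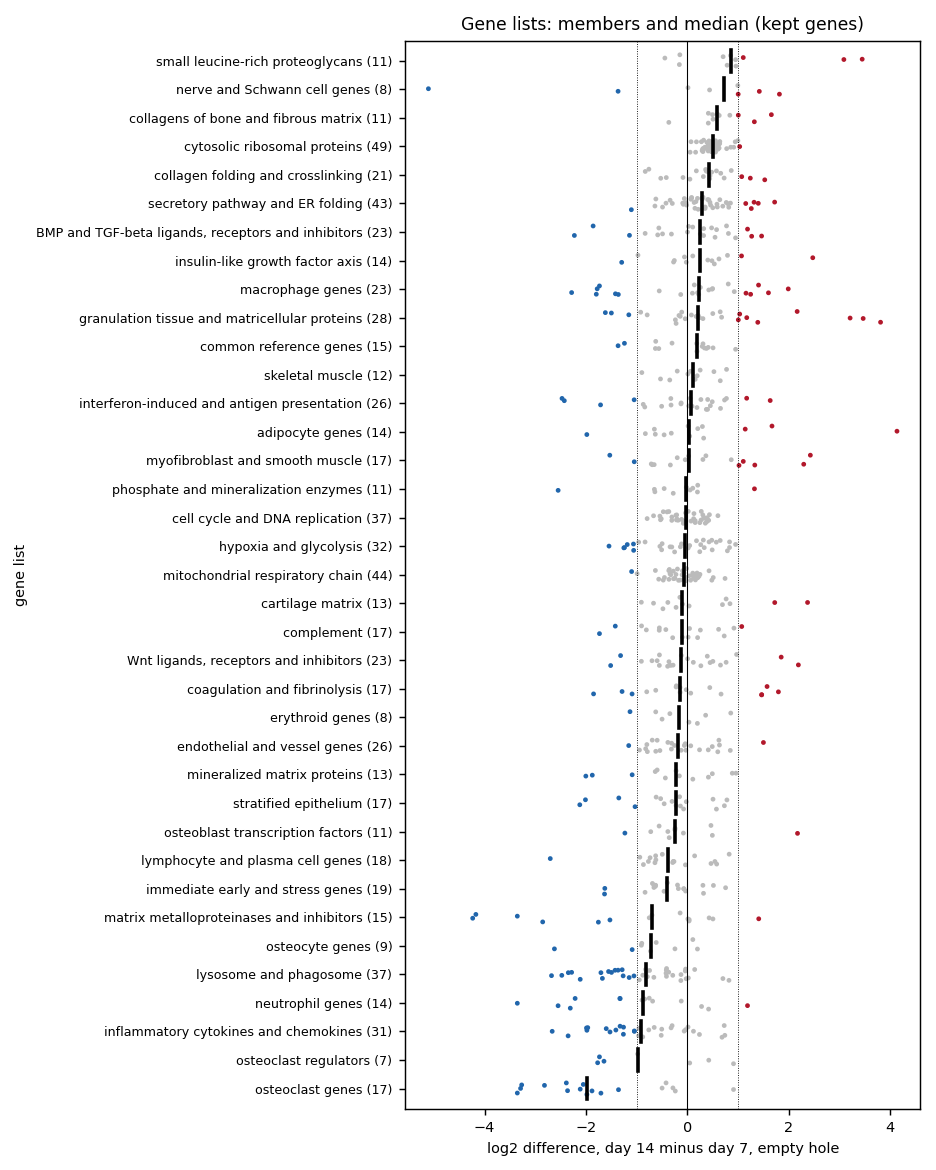
Each line is 1 of 37 gene lists, each point a kept member's log2 difference, day 14 minus day 7 in the empty hole (red at least 2-fold higher, blue at least 2-fold lower), and the black bar the list's median. Osteoclast genes lie lowest (median -1.98), small leucine-rich proteoglycans highest (0.85), and ribosomal protein genes lie closest together.

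Probe sets of the same gene gave a technical check within the same pair of specimens. Of 5185 genes with at least 2 probe sets above the filter, 55.6% had all of them on the same side of 0. Among genes called at least 2-fold on their main probe set, the share was 189 of 240 higher genes (78.8%) and 278 of 335 lower genes (83.0%). The main probe set that set the call is counted here, and genes near 0 on it are left out. These shares therefore stand above 55.6% in part by selection. At least 2-fold on every probe set were 52 higher and 105 lower genes. The 12 leading genes of each kind included the matrix and contractile genes THBS2, HMCN1, SFRP2, TAGLN and ACTG2 on the higher side. On the lower side they included MMP13, ACP5, MMP1, ATP6V0D2, CD68, SNX10, CXCL10, CXCL13 and the serine peptidase gene DPP4 (-2.86 and -2.41). The array holds probe sets with names in Cfa and in CfaAffx. Over 3746 genes measured on both, the difference was lower by a median of 0.13 on CfaAffx, with medians of -0.13 on CfaAffx and -0.02 on Cfa. In implanted holes the same gap was -0.57, with medians of -0.74 and -0.18. Probe sets of one gene lay over 2 log2 units apart for 58 of the 5185 genes in the empty hole (1.12%) and for 721 in implanted holes (13.9%).

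**Figure D4:**
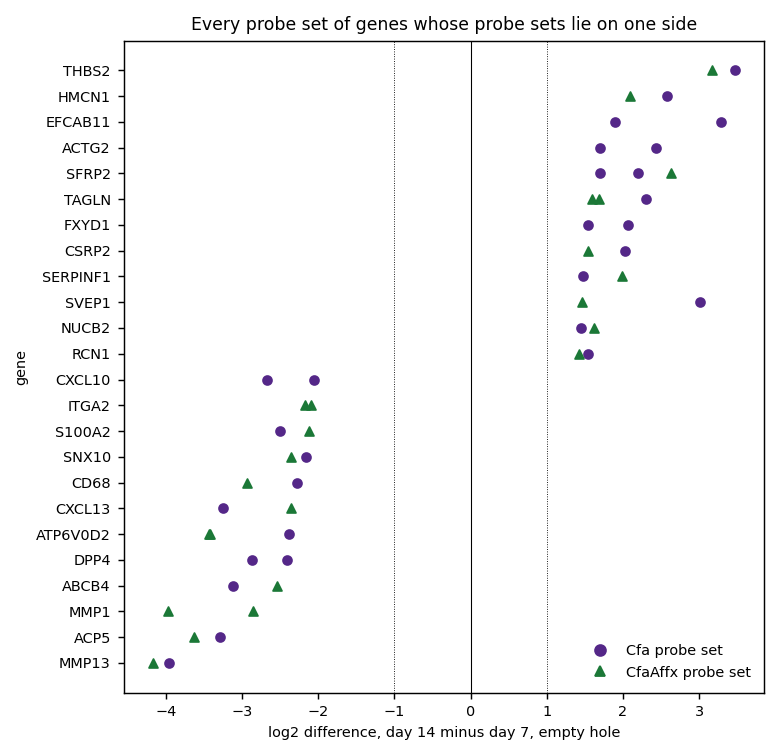
Every probe set above the filter of the 12 highest and 12 lowest genes ranked by the probe set nearest to 0, with the log2 difference, day 14 minus day 7 in the empty hole, on the horizontal axis; circles are Cfa and triangles CfaAffx probe sets. For all 24 genes every probe set lies beyond 2-fold (dotted lines) on one side, which the ranking itself selects for.

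The same days in holes with beta-TCP gave a comparison that shares no array with the empty-hole one, although its day 14 array was also deposited undivided, with a median of 6.2. That array stood apart. Its Spearman correlations with other arrays ran from 0.723 to 0.779, and those among the remaining 5 arrays from 0.832 to 0.905. In implanted holes 508 genes were at least 2-fold higher at day 14 (4.82%) and 1748 lower (16.6%), together 21.4%, so 22.5% of the called genes were higher. Scaled to the 90th percentile that share was 52.0%, with quantile normalization 47.6%, and centred on the median of all genes 38.7%. The median of all genes in implanted holes was -0.17, or 0.13 scaled to the 90th percentile, so the implanted differences below depend on the scaling. In the empty hole it was 40.02%, and 43.0% to 45.5% under these scalings.

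Of the 664 genes lower in the empty hole, 240 (36.1%) were at least 2-fold lower in implanted holes too, beside 16.6% of all genes, and 21 (3.16%) were higher. These 240 are 13.7% of the genes lower in implanted holes. Of the 443 genes higher in the empty hole, 45 (10.2%) were higher in implanted holes, beside 4.82% of all genes, and 79 (17.8%) were lower, beside 16.6%. The 45 are 8.86% of the genes higher in implanted holes.

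Osteoclast genes had a median of -0.28 in implanted holes, and scaled to the 90th percentile their median was 0.12. At least 2-fold lower were 3 of 17 and 1 was higher, close to the 16.6% and 4.82% of all genes. With probe sets averaged the osteoclast median was -0.71, and on CfaAffx probe sets -0.62. The lysosome list lay at -0.32, and at -1.86 on CfaAffx and -0.10 on Cfa. The ATP6 genes lay at -0.36. For ACP5, MMP9 and SLC4A2 the implanted differences were -0.07, -0.28 and -0.02, or 0.33, 0.12 and 0.37 scaled to the 90th percentile, while the second probe set of ACP5 gave -3.87. Inflammatory genes were lower in both, with a median of -1.61 and 19 of 31 at least 2-fold lower in implanted holes, beside 16.6% of all genes. Small leucine-rich proteoglycans lay at -0.61 in implanted holes, and at -0.21 scaled to the 90th percentile. Collagens lay at -0.11 and 0.16 under these scalings, on opposite sides of 0. In the empty hole the medians of these 4 lists kept their side of 0 under all scalings tried. No difference between empty and implanted holes could be tested with 1 array in each.

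Genes higher at day 14 of the empty hole were also looked up between days 4 and 7 of implanted holes, a pair of arrays it does not share and that was deposited on one scale. Of the 443 genes, 77 (17.4%) were at least 2-fold higher at day 7 than at day 4 there, beside 4.86% of all kept genes, and 9 (2.03%) were lower, beside 2.58%. The 77 are 15.0% of the genes higher there. Of the 664 genes lower at day 14 of the empty hole, 91 (13.7%) were higher and 61 (9.19%) lower between those days in implanted holes. POSTN and SFRP2, higher at day 14 in the empty hole, were highest at day 7 in implanted holes (75.4 and 244).

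**Figure D5:**
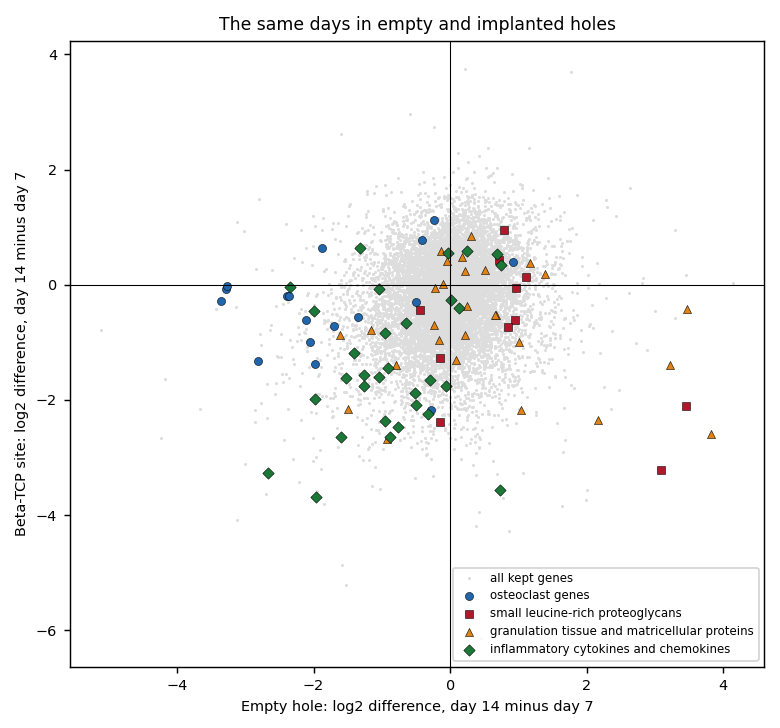
Log2 difference, day 14 minus day 7, in the empty hole (horizontal) against the hole with beta-TCP (vertical) for all kept genes (grey) and the members of 4 lists. Each gene is read on its main probe set. Most osteoclast genes (blue circles) lie far left but near 0 on the vertical axis, the leading proteoglycan and matricellular genes lie to the right and below 0, and most inflammatory genes (green diamonds) lie left and below.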

How the data were processed

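The authors deposited 1 table of 42860 probe sets on 6 arrays. Values of days 4 and 7 are a signal already divided by the array's median (lowest values set to 0.01), and those of day 14 an undivided intensity, as read from the deposited values. The software that made them was not given in the sources used here. Each array was divided by its own median and log2(value + 1) taken. An annotation table gave 1 gene for 29254 probe sets, several for 439 and none for 13167, and for 27680 of the 29254 the gene ID was found in RefSeq's table for assembly UU_Cfam_GSD_1.0, from which only names were taken. The 90 pairs (180 probe sets) ending in _a_at and _at were left out. Genes whose mean over 6 arrays reached the 40th percentile of all probe sets were kept.

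With 1 array per day no test was run. A list is called higher or lower where its median is at least 0.5 from 0, and needs 5 kept genes; 37 lists had them. Lists share genes. Named genes are the 12 highest and 12 lowest, the 12 highest and 12 lowest by the probe set nearest to 0, up to 4 leading members per list and direction, and fixed cell type markers; others were named after their values were seen. The comparison, lists and rules were chosen with earlier results of these data known. Alternatives were pseudocounts of 0.25, 4 and 16, other scalings, filters and choices of probe set. The code was tested on simulated data and run in Python 3.11.15 with pandas 2.3.3.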

Additional observations from a re-analysis of the deposited data

Results flagged for a closer look

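Between days 7 and 14, 10 of 42 leading genes differed at least 2-fold in opposite directions in the empty and the implanted hole. Among all 443 genes higher in the empty hole, 17.8% were at least 2-fold lower in implanted holes, beside 16.6% of all genes. Among the 664 lower genes 3.16% were at least 2-fold higher there, beside 4.82% of all genes. With 1 array in each group the opposite directions were not tested. Among the 10, matrix and secretory genes were higher in the empty hole and lower in the implanted one. TNN differed by 3.81 in the empty and -2.59 in the implanted hole, ASPN by 3.45 and -2.11, and POSTN by 3.21 and -1.38. For OGN the values were 3.09 and -3.21, for the carboxypeptidase gene CPZ 2.88 and -1.14, and for SFRP2 2.19 and -1.19. The calcium-binding protein genes NUCB2 (1.44 and -1.78) and RCN1 (1.54 and -1.58) had the same signs, on both probe sets of each gene. The phospholipid transporter gene ABCB4 (-3.12 and 1.09) and DPP4 (-2.41 and 1.06) were lower in the empty and higher in the implanted hole on their main probe sets. The second probe set of DPP4 was lower in both (-2.86 and -1.39), and that of ABCB4 gave -2.54 and 0.12. All 10 kept these signs under the other scalings, while scaled to the 90th percentile the implanted differences of POSTN (-0.99), CPZ (-0.80) and SFRP2 (-0.79) lay within 2-fold. So did CPZ (-0.97) after centring and CPZ (-0.69) and DPP4 (0.97) with quantile normalization. TNN, ASPN, POSTN, OGN and CPZ were read on 1 probe set each, which for all but ASPN was a CfaAffx probe set. Over 3746 genes with both types, the median gap of CfaAffx to Cfa in implanted holes was -0.57. The implanted day 14 array is the one that stood apart from the others.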

How the results depend on the processing

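With 1 array per day the spread between specimens is unknown. Counts of genes past 2-fold follow the pseudocount. In the empty hole they were 817 higher and 1125 lower at 0.25, 208 and 273 at 4, and 77 and 117 at 16. With fewer genes tested, Cfa probe sets alone gave 279 higher (4.65%) and 351 lower (5.86%), and CfaAffx alone 253 higher (3.05%). In implanted holes higher genes numbered 934, 165 and 83 at these pseudocounts, 1089 with quantile normalization, 1222 scaled to the 90th percentile, 816 centred, 327 with the 60th percentile filter, 278 with probe sets averaged, 329 on Cfa and 249 on CfaAffx. Lower genes numbered 697 and 159 at pseudocounts of 4 and 16, 1126 scaled to the 90th percentile and 812 on Cfa. These implanted counts were added after the data were seen.

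The osteoclast list was called lower under all 12 alternatives. At a pseudocount of 4 the medians closer to 0 than 0.5 were those of collagens (0.49), osteocyte genes (-0.26), proteoglycans (0.48), metalloproteinases (-0.16), neutrophil genes (-0.44), ribosomal proteins (0.50 after rounding) and nerve genes (0.30). At 16 they were collagens (0.48), osteocyte genes (-0.0729), proteoglycans (0.18), metalloproteinases (-0.0443), osteoclast regulators (-0.36), inflammatory genes (-0.30), neutrophil genes (-0.17), lysosomal genes (-0.41), ribosomal proteins (0.48) and nerve genes (0.0915). Quantile normalization gave 0.47 for collagens and 0.32 for ribosomal proteins. With no filter metalloproteinases turned to 0.00785 and nerve genes lay at 0.074, and with the stricter filter nerve genes lay at 0.23. On CfaAffx metalloproteinases lay at -0.14, ribosomal proteins at 0.46 and nerve genes at 0.30. On Cfa neutrophil genes lay at -0.30 and ribosomal proteins at 0.49, which averaged over probe sets gave 0.49. The causes were not tested.

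Of the named genes past 2-fold, 2 changed sign, the complement gene C2 with probe sets averaged (-0.45) and PGK1 on Cfa (0.71). Many more fell within 2-fold without changing sign. Of 144 genes named by the rules, 73 did so at a pseudocount of 16, 31 at 4 and 19 with probe sets averaged. On CfaAffx 18 of 114 did, and under any other alternative at most 6. No paired analysis was possible because each group has 1 array.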

Other observations

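Several of the lowest genes belong to none of the lists. INSIG1, which retains the sterol sensor in the endoplasmic reticulum, read 5.65, 43.8 and 3.17 in the empty hole and 4.12, 9.25 and 6.69 in implanted holes. The secreted phospholipase gene PLA2G5 read 0.413, 15.1 and 0.833 against 0.355, 2.89 and 1.98, and ABCB4 2.02, 22.3 and 1.68 against 1.98, 5.23 and 12.3. All 3 had their highest signal of the 6 arrays at day 7 of the empty hole, as had CRYAB (4.73, 168 and 3.90 against 3.92, 30.7 and 17.3). Among the highest genes outside the lists, the retinoic acid binding protein gene CRABP1 read 0.442, 0.259 and 12.7 in the empty hole and 4.12, 6.79 and 4.63 in implanted holes, and SVEP1, a large adhesion protein, 2.16, 3.25 and 33.1 against 4.18, 21.7 and 15.7. LRIG3 read 4.61, 3.43 and 42.2 against 9.86, 20.7 and 13.6, and 1 of its probe sets gave a difference of only 1.05. TMEFF1 (3.45) had a probe set at 0.87, and the sugar phosphate transporter gene SLC37A2 (-3.13) and the microtubule-binding gene CLIP4 (-3.02) had ones at -0.80 and -0.58.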
